A study of Mus musculus with 5 samples.

Results

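The interferon-induced transmembrane (IFITM) genes Ifitm1, Ifitm2 and Ifitm3 were followed in haematopoietic stem cells (HSCs). The members were taken by symbol, and all 3 were present among the 11643 genes of the deposited expression table. The table comes from RNA-seq of cells sorted from C57BL/6 mouse bone marrow by a gate of no lineage markers, c-Kit, Sca-1 and CD150 positive, and CD48 negative. It holds 2 libraries labelled Tle1/3/4-deficient and 3 control libraries. The deficient mice carried floxed Tle1, Tle3 and Tle4, which Vav-Cre was meant to delete in all blood cells and not in stem cells alone. The alleles carried by the controls, the age of the mice and any pooling of animals are not stated in the labels. The p-values therefore cover the spread among these libraries alone, which could be technical.

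IFITM proteins are small membrane proteins of the CD225 (dispanin) family. They hinder the fusion of enveloped viruses with host membranes, and interferon raises their expression in most tissues, while stem cells are known to express several of them without added interferon. In human cells IFITM1 sits mainly at the cell surface, where it was first described in a complex with the tetraspanin CD81, and IFITM2 and IFITM3 sit mainly on endosomes. Mouse Ifitm3 is also known as fragilis, from its expression in primordial germ cells.

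In RefSeq (GRCm38.p6) the 3 genes lie next to one another on chromosome 7 in the order Ifitm2, Ifitm1, Ifitm3, with no other protein-coding gene between them. Their coding sequences, taken from GENCODE M21 transcripts of the same assembly, were 82.1% identical for Ifitm1 and Ifitm2, 82.1% for Ifitm1 and Ifitm3, and 80.9% for Ifitm2 and Ifitm3. The longest runs of identical coding bases are shown because a read inside them cannot be given to 1 gene. Capitals mark the 40 bases that all 3 genes share.
Ifitm2 and Ifitm3: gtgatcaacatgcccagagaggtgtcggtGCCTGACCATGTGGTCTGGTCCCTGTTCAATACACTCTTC
Ifitm1 and Ifitm3: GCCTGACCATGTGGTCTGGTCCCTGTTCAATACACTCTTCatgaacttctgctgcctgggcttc
The first run is 69 bases long and the second 64. Of all 50-base windows of the Ifitm3 transcript, 3.18% were also found in Ifitm2 and 2.38% in Ifitm1. Ifitm2 shared 36.1% of its windows with Gm45717, a gene model that overlaps it on the same strand, and 14.9% with Gm11951. Neither gene model is in the expression table. How the authors assigned reads shared between copies or overlapping models is not stated in the labels. Ifitm2 shared the most windows, so its level may be the least certain of the 3, which was not tested.

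Interferon acts on many of its target genes through the interferon-stimulated response element (ISRE), whose core was searched as GAAANNGAAA on both strands, from 250 bases before to 50 bases after the RefSeq start. Of 32851 such windows of all genes, 3.44% held a match. The Ifitm2 window held 1 match, at bases -46 to -37 from the start, and the Ifitm3 window held 2, at bases 3 to 12 and 20 to 29 after it. The Ifitm1 window held none. GENCODE M21 lists several Ifitm1 transcripts, and no start of Ifitm1 other than this RefSeq start was searched. The stretches below, from RefSeq promoters of GRCm38.p6, are shown because they set the genes apart in sequence, with matches in capitals. For Ifitm1 the stretch at the same distance as in Ifitm2 is given.
Ifitm1, chr7:140968020-140968049, plus strand: tgggagtggctctccctgcccacaccctaa
Ifitm2, chr7:140955988-140956017, minus strand: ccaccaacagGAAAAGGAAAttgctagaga
Ifitm3, chr7:141010714-141010743, minus strand: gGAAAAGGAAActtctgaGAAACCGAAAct
The gamma-activated sequence searched as TTCNNNGAA, held by 8.3% of all windows, was matched in Ifitm3 alone of the 3, at bases 14 to 22, where it overlaps the second ISRE match. Neither TGTGGT, the core bound by RUNX factors (16.8% of windows), nor CTTTGAT, a core bound by TCF factors (3.73%), was matched in any of the 3 windows, both strands searched. RUNX and TCF factors are partners through which TLE co-repressors reach DNA. These are matches of letters in a short window, and binding was not measured.

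The columns of the table summed to between 599137 and 683822 FPKM (fragments scaled by gene length and by library total), and the read depth behind them is unknown. Tle3 went against its label, at 32.3 and 31.6 FPKM in the libraries labelled deficient and at 2.48, 4.97 and 5.61 FPKM in the controls. Tle4 was at 0.353 and 0.203 FPKM against 5.67, 0.0129 and 5.29 FPKM in control replicates 1, 2 and 3, lower than 2 of the 3 controls. Tle1 was low and overlapped between the groups, at 2.84 and 4.37 FPKM against 1.83, 0.811 and 3.33 FPKM. None of the 3 passed over all genes (limma), and a level over the whole gene also counts exons outside the floxed part, so every direction below rests on the labels. Kit, which encodes the c-Kit of the gate, was present in all 5 libraries. Markers of cells outside the gate were also present. All 9 neutrophil markers were above every control in both libraries labelled deficient, where 10.2% of all tested genes were. Their summed levels were 10772 and 64983 FPKM in replicates 1 and 2 labelled deficient and 287 to 2601 FPKM in the controls. The monocyte and macrophage list includes Ifitm6, described below. Of its 8 other measured markers 5 were above every control, summing to 148 and 778 FPKM against 16.7 to 75.7 FPKM, with Cd14 listed at 0 in all 3 controls. Erythroid (6), megakaryocyte (6) and myeloid precursor (5) markers also had positive fold changes throughout. In bulk RNA, more cells of a type and more RNA per cell cannot be told apart.

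All 3 members were among the most abundant transcripts of these cells. They ranked between place 30 and place 90 of 11643 genes in every library. Summed, they stood at 5236 and 3141 FPKM in replicates 1 and 2 labelled deficient and at 3770, 3665 and 5749 FPKM in control replicates 1, 2 and 3. Deficient-labelled replicate 1 and control replicate 3 were thus the high libraries, and the groups overlapped. The group means of the sum were 4188 ± 1482 FPKM in the libraries labelled deficient and 4395 ± 1174 FPKM in the controls (SD, n = 2 and 3). On the log2 scale the sum differed by -0.084 (exact permutation test, two-sided, p = 0.8). Within the controls the levels per length of Ifitm1, Ifitm2 and Ifitm3 averaged 1708, 1350 and 1337 FPKM, and these averages lay closer together than the SD of Ifitm1.

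Ifitm1 was lower in both libraries labelled deficient than in any control. It stood at 1039 and 817 FPKM in replicates 1 and 2 labelled deficient and at 1128, 1316 and 2679 FPKM in control replicates 1, 2 and 3. The groups did not overlap, but the gap between deficient-labelled replicate 1 and control replicate 1 was small, and control replicate 3 stood far above every other library. The means were 928 ± 157 FPKM and 1708 ± 846 FPKM (SD, n = 2 and 3). The log2 fold change on the log2(FPKM + 1) scale was -0.78 (SE 0.40, 95% interval -1.72 to 0.16) and did not pass the threshold set below (limma, adjusted p = 0.640). Without control replicate 3 it was -0.40.

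Ifitm2 was the steadiest member. It stood at 1580 and 1173 FPKM in replicates 1 and 2 labelled deficient and at 1421, 1205 and 1423 FPKM in control replicates 1, 2 and 3. The deficient-labelled libraries lay on either side of the controls, and the highest library was 1.35 times the lowest. The means were 1376 ± 287 FPKM and 1350 ± 125 FPKM (SD, n = 2 and 3), with a log2 fold change of 0.017 (SE 0.27). The 95% interval of -0.61 to 0.64 still allows a change of either sign (limma, adjusted p = 0.990).

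Ifitm3, the member best known for restricting influenza virus in mice, differed most between the libraries labelled deficient. It stood at 2617 and 1150 FPKM in replicates 1 and 2 of that group and at 1221, 1144 and 1646 FPKM in control replicates 1, 2 and 3. Deficient-labelled replicate 1 was far above all others, while replicate 2 lay within the controls. The means were 1884 ± 1037 FPKM and 1337 ± 270.5 FPKM (SD, n = 2 and 3). The log2 fold change of 0.39 (SE 0.39, 95% interval -0.52 to 1.31) did not pass (limma, adjusted p = 0.804). Its sign rests on deficient-labelled replicate 1, since it was -0.20 without that library and 0.99 without replicate 2.

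**Figure D1:**
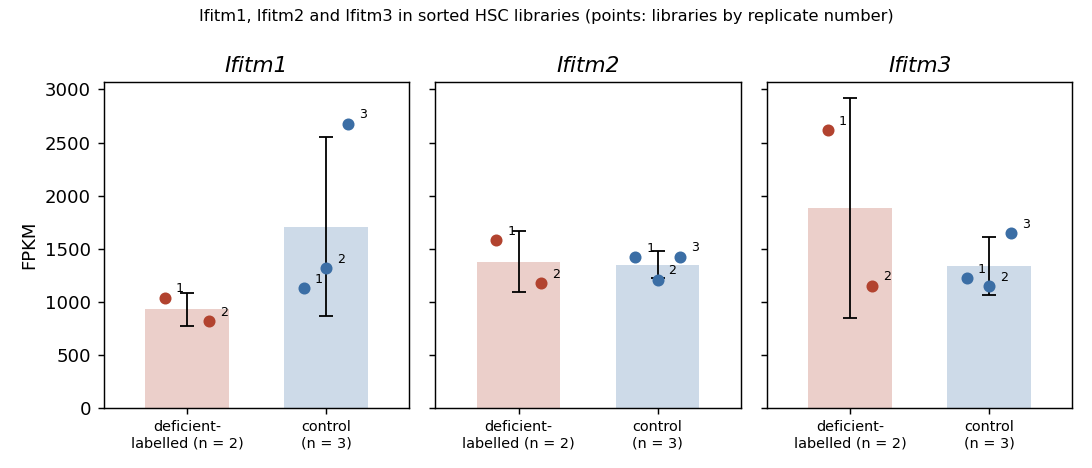
FPKM (y axis) of Ifitm1, Ifitm2 and Ifitm3 in the deficient-labelled (left) and control (right) libraries of each panel. Points are libraries with their replicate number, bars are group means and whiskers are the SD (n = 2 and 3). Both deficient-labelled libraries lie below the controls for Ifitm1, at 1039 and 817 FPKM, and 1 of them, at 2617 FPKM, lies far above the other libraries for Ifitm3.

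Over all genes, 2 of 10570 passed the threshold of an adjusted p of 0.05 (0.0189%), and 0 of the 3 members did so (limma). At an unadjusted p under 0.05 the count of members was also 0, against 8.45% of all tested genes. Both deficient-labelled libraries were below every control in 15.9% of the genes tested, so 1 member of 3 with that pattern is a description and no more. The table as deposited had a median log2 fold change of -0.10 over the genes tested, and median-of-ratios scaling of its columns moved this to 0.016. After that scaling Ifitm1, Ifitm2 and Ifitm3 stood at -0.65, 0.14 and 0.52.

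The share of each member in the family signal was compared next. Such a comparison within a library does not depend on how that library was scaled. Ifitm1 gave 19.8% and 26.0% of the 3-gene sum in the libraries labelled deficient and 29.9%, 35.9% and 46.6% in control replicates 1, 2 and 3. For Ifitm3 the shares were 49.99% and 36.6% in the libraries labelled deficient and 32.4%, 31.2% and 28.6% in the controls. Neither set of shares overlapped between the groups. In FPKM, 26.1% of all tested genes had groups that did not overlap, in either direction. The 3 shares of a library make up its whole sum, so a lower share of 1 member and a higher share of another are tied. Ifitm1 was the lowest member in both libraries labelled deficient and also in control replicate 1, and it was the highest in control replicates 2 and 3. Ifitm2 shares overlapped, at 30.2% and 37.4% in the libraries labelled deficient against 37.7%, 32.9% and 24.8% in the controls.

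The ratio of Ifitm3 to Ifitm1 was 2.52 and 1.41 in replicates 1 and 2 labelled deficient and 1.08, 0.869 and 0.615 in control replicates 1, 2 and 3. On the log2 scale the groups differed by 1.18 (deficient-labelled 0.91 ± 0.59, controls -0.26 ± 0.41). The exact permutation test gave p = 0.2 (two-sided, adjusted p = 0.4 over the 4 ratio and sum tests), which is the smallest value that 2 against 3 libraries allow. For Ifitm2 to Ifitm1 the difference was 0.80 and the groups again did not overlap (exact permutation, p = 0.2, adjusted p = 0.4). It was 0.46 without control replicate 3. For Ifitm3 to Ifitm2 it was 0.38 with overlapping groups (exact permutation, p = 0.4, adjusted p = 0.533), and it was -0.00081 without deficient-labelled replicate 1. The Ifitm3 to Ifitm1 difference kept its sign when each library was left out, between 0.76 and 1.596. It did not reach a test threshold in any of these runs, since the design cannot.

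**Figure D2:**
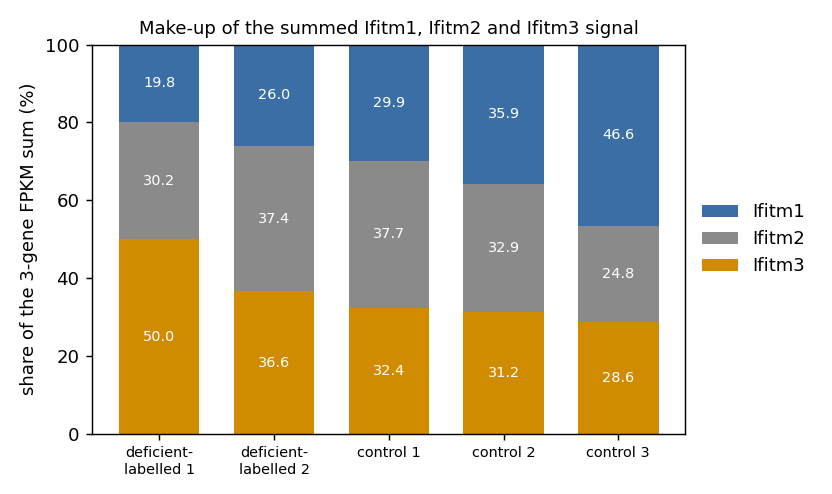
Share of the summed Ifitm1, Ifitm2 and Ifitm3 FPKM (y axis, percent) taken by each gene in the 5 libraries, deficient-labelled on the left. The Ifitm1 share is 19.8% and 26.0% in the libraries labelled deficient and at least 29.9% in the controls.

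Interferon-stimulated effector genes, a list that does not contain the 3 members, were set beside them. The list gave 42 tested genes, of which 0 passed over all genes (limma). An unadjusted p under 0.05 was found for 2 of them (limma), against 8.45% of all tested genes. Positive fold changes numbered 26 and negative ones 16, with a median of 0.30 against -0.10 over all tested genes, and 5 were above and 3 below every control, where 10.2% and 15.9% of all tested genes were. The deficient-labelled libraries differed from each other here. Of the 42 genes, 41 were higher in deficient-labelled replicate 1 than in replicate 2, against 54.1% of all tested genes, and all 3 IFITM members were too. In 32 of the 42, against 21.5% of all tested genes, deficient-labelled replicate 1 was the highest of the 5 libraries, as for Ifitm2 and Ifitm3. Control replicate 3, the highest library for Ifitm1, was the highest in 2 of the 42, against 15.4% of all tested genes. The median deviation from the control mean was 0.88 in deficient-labelled replicate 1 and -0.39 in replicate 2, and it was 0.030, -0.31 and 0.080 in control replicates 1, 2 and 3.

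The most abundant of these genes, B2m, the light chain of MHC class I, had high and low libraries like those of Ifitm3. It stood at 8532 and 4121 FPKM in replicates 1 and 2 labelled deficient and at 4088, 3813 and 7081 FPKM in control replicates 1, 2 and 3. Deficient-labelled replicate 1 and control replicate 3 were again high. Psmb8, a subunit of the immunoproteasome, was at 578 and 311 FPKM in the libraries labelled deficient and at 402, 453 and 391 FPKM in the controls. Among genes whose groups did not overlap, the nuclear body gene Sp100 was at 142 and 62.5 FPKM against 38.6 to 44.1 FPKM (log2 fold change 1.18, limma, adjusted p = 0.504). Oas3, which makes the RNase L activator, was at 45.8 and 26.7 FPKM against 1.67 to 16.6 FPKM. Tap1, the peptide transporter, was at 175 and 105.9 FPKM against 53.6 to 92.5 FPKM, and Rsad2 (viperin) at 18.7 and 13.6 FPKM against 5.82 to 12.005 FPKM. Promoter windows were at hand for 31 genes of the list. Of these, 15 held the ISRE core that Ifitm2 and Ifitm3 hold, against 3.99% of all genes with a window.

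**Figure D3:**
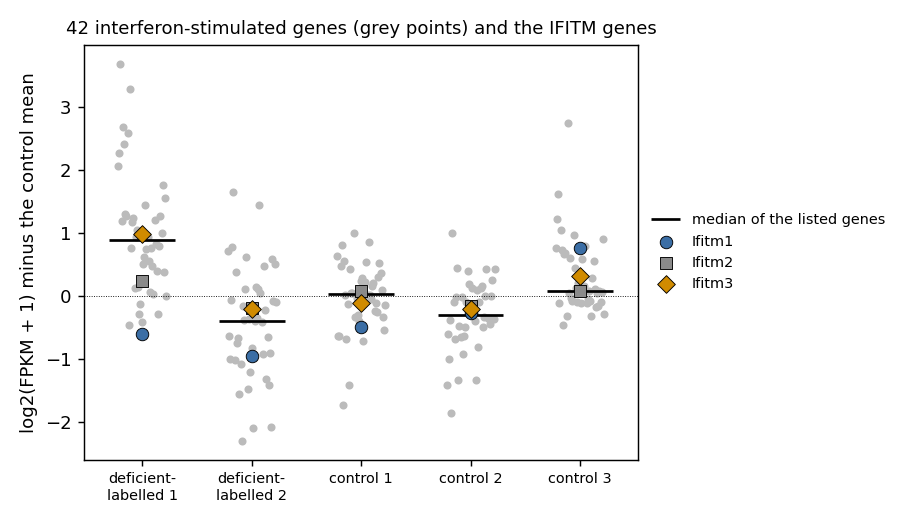
Deviation of log2(FPKM + 1) from the control mean (y axis) in each library for 42 interferon-stimulated genes (grey points, median as a line) and for Ifitm1, Ifitm2 and Ifitm3. In deficient-labelled replicate 1 the median of the listed genes is 0.88, close to Ifitm3, while Ifitm1 lies below 0 in both libraries labelled deficient.

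Interferon receptors and their signalling genes showed no common direction. Of 24 tested genes 12 had positive and 12 negative fold changes, and 0 passed (limma). An unadjusted p under 0.05 was found for 3 of the 24 (limma), against 8.45% of all tested genes. Below every control were 4 of the 24 and above every control 1, near or under the shares of all tested genes given above (15.9% and 10.2%). Ifnar1 and Ifnar2, which together form the type I interferon receptor, were among the 4 below. Ifnar1 was at 10.9 and 11.2 FPKM in the libraries labelled deficient against 21.6 to 31.9 FPKM (adjusted p = 0.546), and Ifnar2 at 25.7 and 27.5 FPKM against 50.9 to 58.7 FPKM (adjusted p = 0.439). Irf2, a repressor of interferon targets, was also below, at 16.9 and 26.4 FPKM against 30.1 to 47.8 FPKM. Irf7, an inducer of interferon genes that is itself raised by interferon, lay the other way, at 149 and 87.2 FPKM against 23.2 to 50.8 FPKM (log2 fold change 1.56, limma, adjusted p = 0.439). The most abundant genes of the list, Ifngr1 and Irf3, overlapped between the groups.

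Enzymes and partners that act on IFITM proteins were tested for 19 of 20 listed genes. None of the 19 passed (limma), and 2 had an unadjusted p under 0.05, against 8.45% of all tested genes. Above every control were 2 and below every control 4, where 10.2% and 15.9% of all tested genes were. The median log2 fold change was -0.23. Zdhhc20, a palmitoyltransferase that modifies human IFITM3, was at 12.3 and 12.4 FPKM in the libraries labelled deficient and at 20.9, 36.4 and 31.1 FPKM in the controls (log2 fold change -1.16, limma, adjusted p = 0.540). Zdhhc1, another palmitoyltransferase, was at 12.2 and 9.40 FPKM against 37.1, 41.0 and 29.1 FPKM (log2 fold change -1.63, adjusted p = 0.433). Nedd4, the ubiquitin ligase that targets IFITM3 for turnover, was at 96.2 and 75.2 FPKM against 97.5 to 111 FPKM, and the related ligase Itch at 29.0 and 15.9 FPKM against 11.2 to 14.1 FPKM. The ATPase Vcp and the membrane contact protein Vapa, the most abundant genes of the list, overlapped between the groups.

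Among tetraspanins and surface partners 0 of 12 passed (limma; 2 had an unadjusted p under 0.05, against 8.45% of all tested genes), and 7 had positive fold changes. Above every control were 2 of the 12 and below every control 0, where 10.2% and 15.9% of all tested genes were. Cd63, the most abundant of them, was at 215 and 391 FPKM in the libraries labelled deficient and at 503, 520 and 387 FPKM in the controls (log2 fold change -0.68, limma, adjusted p = 0.618). Cd81, the partner of human IFITM1 named above and chosen after its values were seen, was at 210.0 and 213 FPKM against 383, 0 and 394 FPKM in control replicates 1, 2 and 3, where the 0 may be a failed estimate. Cd9 was at 692 and 448 FPKM in the libraries labelled deficient and at 203, 172 and 135 FPKM in the controls (log2 fold change 1.73, adjusted p = 0.345). Cd53, a leukocyte tetraspanin, was at 31.7 and 32.3 FPKM against 5.63 to 9.95 FPKM (log2 fold change 1.93, adjusted p = 0.433). Cd9 is abundant in platelets and Cd53 in many white cells, and the part of the marker changes above in these values was not tested. Of 14 tested TLE family genes and partners 0 passed (limma), with 7 fold changes in each direction. An unadjusted p under 0.05 was found for 2 of them (limma), against 8.45% of all tested genes. Of these 14 genes 3 were above every control, Tle3 among them, and 1 was below, where 10.2% and 15.9% of all tested genes were.

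The measured relatives of the 3 genes were below all 3 members in every library. Ifitm6, a neighbour of Ifitm3 that is expressed in myeloid cells, was at 45.6 and 777 FPKM in replicates 1 and 2 labelled deficient and at 0.401, 9.59 and 14.7 FPKM in control replicates 1, 2 and 3. The groups did not overlap, and deficient-labelled replicate 2 was far above every other library. The log2 fold change was 4.95 (SE 1.35, limma, adjusted p = 0.439). The neutrophil marker sum given above had the same order of the libraries labelled deficient, and both it and Ifitm6 were lowest in control replicate 1. Its part in the Ifitm6 values was not tested. Ifitm3 had the opposite order, being higher in deficient-labelled replicate 1 than in replicate 2. The neutrophil sum was 10772 FPKM in the former and 64983 FPKM in the latter. The megakaryocyte and platelet marker sum had the order of Ifitm3, at 7981 and 3491 FPKM, against 427 to 1065 FPKM in the controls. The erythroid sum (166 and 579 FPKM) and the myeloid precursor sum (456 and 3200 FPKM) had the order of the neutrophil sum. The part of any of these cell types in the Ifitm3 values was not tested. Ifitm5, known from bone-forming cells, and Ifitm7 were at 0 to 4.88 and at 0 to 15.8 FPKM over the 5 libraries. Tmem91, another CD225 relative, was listed at 0 in both libraries labelled deficient and at 12.5, 9.54 and 17.7 FPKM in the controls. The log2 fold change of Tmem91 was -3.79 (limma, adjusted p = 0.345). Whether a listed 0, here or for Cd14 in the controls, is a true absence or a failed estimate is unknown.

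**Figure D4:**
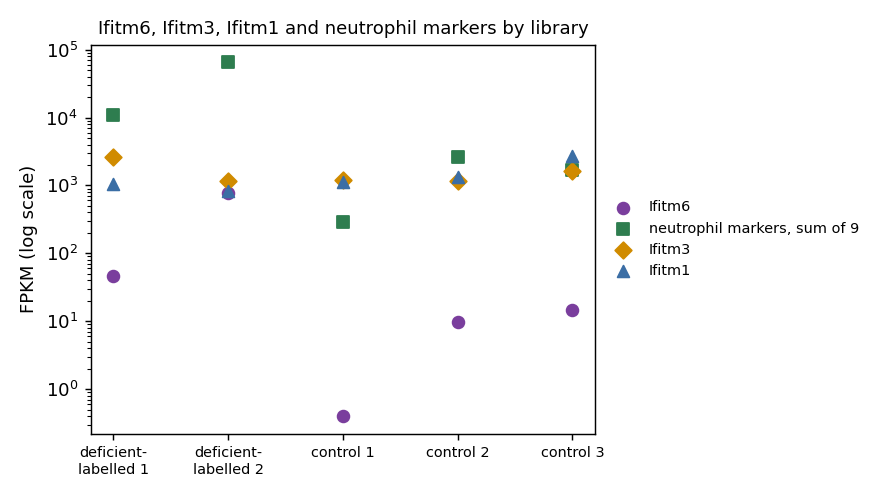
FPKM on a log axis of Ifitm6, Ifitm3 and Ifitm1 and the summed FPKM of 9 neutrophil markers in each library, deficient-labelled on the left. Ifitm6 and the neutrophil sum are highest in deficient-labelled replicate 2, at 777 and 64983 FPKM, where Ifitm3 is at 1150 FPKM.

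The genes around the cluster were described to see whether the pattern was shared along the chromosome. Of the 6 nearest protein-coding genes on each side that were in the table, 1 was above every control (Ifitm6) and 4 were below (Athl1, Bet1l, B4galnt4 and Sigirr), and 0 of the 12 passed (limma; 3 had an unadjusted p under 0.05). Over all tested genes 10.2% were above and 15.9% below every control, and 8.45% had an unadjusted p under 0.05. Sigirr, an inhibitory receptor of the interleukin-1 family, was at 33.7 and 30.4 FPKM in the libraries labelled deficient and at 71.3, 47.2 and 66.8 FPKM in the controls. Psmd13, a proteasome subunit, was at 94.1 and 152 FPKM against 119, 136 and 100.03 FPKM, and Rnh1, the ribonuclease inhibitor, at 136 and 121 FPKM against 129.95, 161 and 118 FPKM. The highest mean of a neighbour over the 5 libraries was 169.5 FPKM, for Ifitm6, and it rests mainly on the 777 FPKM of deficient-labelled replicate 2. The 3 members averaged 1360.5 to 1556 FPKM.

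The genes most like each member were found by the root mean squared difference of their log2(FPKM + 1) values over the 5 libraries, after each gene's own mean was taken off. For Ifitm1 they were Tmco1 (0.121), Man1a (0.135) and Isoc1 (0.142). For Ifitm2 they were Ptma (0.027), Usb1 (0.043) and 2310036O22Rik (0.052), and for Ifitm3 Fam134a (0.090), Mphosph6 (0.091) and Fcf1 (0.097). No member was among the closest genes of another, but those genes were picked as the closest, so this says little. For Ifitm2, Ifitm3 ranked 1719 and Ifitm1 3984 among 6586 candidates. For Ifitm3, Ifitm1 ranked 3075 among 5971, and for Ifitm1, Ifitm3 ranked 1624 among 4986. Ifitm2 ranged too little to be a candidate for the other members. The difference was 0.56 between Ifitm1 and Ifitm2, 0.69 between Ifitm1 and Ifitm3 and 0.33 between Ifitm2 and Ifitm3. With at least 4986 candidate genes and 5 libraries, close profiles are found for almost any gene, so these are descriptions only.

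**Figure D5:**
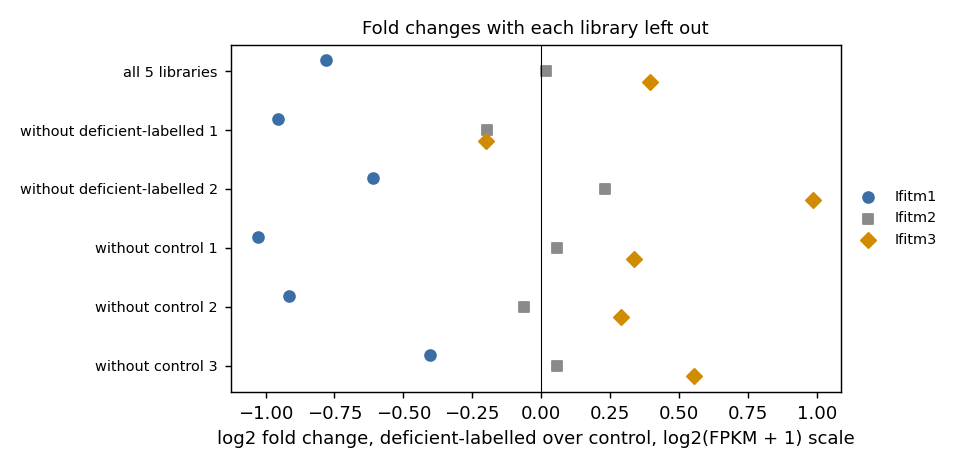
Log2 fold change of deficient-labelled over control libraries (x axis) for Ifitm1, Ifitm2 and Ifitm3, with all libraries (top) and with each left out. Ifitm1 stays below 0 in every run, and Ifitm3 moves from -0.20 to 0.99 depending on which deficient-labelled library is left out.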

How the data were processed

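The authors deposited FPKM values per gene symbol for 5 libraries, 2 labelled deficient and 3 control. Sample titles gave the groups and replicate numbers. TopHat, edgeR and the build mm9 are named, without versions or roles, per the submitters' processing notes. The annotation, the tool behind the FPKM values and the handling of reads that map to several places are not stated there. Depth is unknown, so counting error has no interval here.

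The 10570 genes averaging 1 FPKM or more were analysed as log2(FPKM + 1) by limma 3.58.1 under R 4.3.3, with the group as sole term, an eBayes trend, two-sided p-values, Benjamini-Hochberg adjustment and a threshold of 0.05. Fold changes on this scale understate those of low genes. The test was checked on simulated data. Ratios and the sum used exact permutation tests (scipy 1.17.1). Members, gene lists and tests were chosen with earlier results of these data known. Genes are named by rule: all measured members and CD225 relatives, in each list up to 4 genes with non-overlapping groups and the largest change of those at 5 FPKM or more in a group, the 2 most abundant, the 6 nearest neighbours on each side, and the 3 closest profiles among genes of at least 10 FPKM that range at least 0.5 times as widely as the member. Some genes so named are given only as counts. Transcripts came from GENCODE M21 and promoters from RefSeq, both GRCm38 and not the build of the files, so no position was joined to the FPKM values. Biopython 1.88, pandas 2.3.3 and matplotlib 3.10.9 were used. Alternatives covered pseudocount, filter, scaling, eBayes settings, weights per library, a replicate block and leaving out each library.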

Additional observations from a re-analysis of the deposited data

How the results depend on the processing

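No member passed under any of the 15 alternatives run for its fold change, with adjusted p-values from 0.481 to 0.998 (limma). The fold change of Ifitm1 was negative in all 15, from -1.03 to -0.40. That of Ifitm2, near 0, turned negative with quantile normalization (-0.042), with array weights (-0.0047) and when libraries were left out (-0.20 to 0.23), and that of Ifitm3 ranged from -0.20 to 0.99 when each library was left out. The log2 ratio of Ifitm3 to Ifitm2 ranged from -0.00081 to 0.76 and the log2 sum from -0.45 to 0.28 when each library was left out, and the sum differed by 0.044 after median-of-ratios scaling. Over all genes, 2 passed as reported. The count was 0 with a pseudocount of 0.1, with no filter and with array weights, 1 without the eBayes trend, 4 with a pseudocount of 5 and with median-of-ratios scaling, 5 with robust fitting, and 0 to 5 when each library was left out. With the replicate number as a block it was 22, and the fold changes of the members were -0.40, 0.057 and 0.55. Same-numbered libraries showed little common deviation from their group means (r = 0.035 for replicate 1 and 0.0069 for replicate 2, across genes). The deviations of the 2 deficient-labelled libraries mirror each other, so these are not separate checks and cannot decide whether the numbers pair the samples. The causes of the shifts between runs were not tested. Runs without 1 deficient-labelled library assume that the remaining library varies like the controls. The small number of libraries and the unknown depth limit what can be called for genes this similar in sequence.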
